A study of Mus musculus with 31 samples.

Results

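The genes described here are 43 members of the cascade of mitogen-activated protein (MAP) kinases in mouse brain, taken by symbol from a table of 48795 genes. They fall into 6 tiers: Ras and Raf (4 genes), MAP kinase kinase kinases or MAP3Ks (11), MAP kinase kinases or MAP2Ks (7), MAP kinases or MAPKs (10), scaffolds (5) and kinases switched on by MAPKs (6). By branch, 12 serve ERK1/2, 13 JNK, 7 p38 and 4 ERK5, 2 are atypical MAPKs and 5 feed several branches. The table has 45 rows with a member's symbol, because it gives Ksr2 and Map2k7 to a pair of gene IDs each. By gene ID in GENCODE M21 the extra Ksr2 row is Cnksr2 (203222 counts over all libraries) and the extra Map2k7 row is Gm49320 (1 count), so neither was used.

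Total RNA from homogenised brain tissue was sequenced in 31 libraries, 13 labelled control and 18 labelled deltamethrin. Deltamethrin is an insecticide of the pyrethroid class, whose main targets are sodium channels of nerve cells. The study exposed mice to it during development, and its title names MAP kinase pathways. The labels give the tissue and the agent and nothing on strain, genotype, sex, age, dose, litter or time of collection, so these could not be matched between the groups. Nothing in the labels says that the libraries come from separate animals, so each p-value measures only the spread between these libraries.

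In this cascade a signal passes along a chain of kinases. A membrane receptor or a stress signal switches on a small GTPase or a MAP3K, which phosphorylates a MAP2K, which phosphorylates a MAPK on a threonine and a tyrosine of its activation loop. ERK1/2 is best known in brain for carrying growth factor and synaptic signals to the nucleus, JNK for stress signalling and axon biology, and p38 for stress and inflammatory signals. Scaffold proteins hold the kinases of 1 branch together. Activity is set by phosphorylation, which RNA counts do not measure.

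ERK, JNK and p38 kinases differ at the motif that a MAP2K phosphorylates, while ERK1 and ERK5 share theirs. The coding sequence around it is shown for the MAPK genes other than Mapk4 to make this visible, as runs of 27 bases from GENCODE M21 transcripts, coding strand, 5′ to 3′. Capitals mark the 9 bases of the motif.
Mapk3: ggctttctgACGGAGTATgtggccaca
Mapk7: tacttcatgACTGAGTATgtggctact
Mapk8: tttatgatgACGCCTTATgtggtgact
Mapk9: tttatgatgACTCCCTATgtggtaact
Mapk10: ttcatgatgACTCCGTATgtggtgacg
Mapk11: gaggagatgACCGGATATgtggccaca
Mapk12: agtgagatgACAGGATATgtggtaacc
Mapk14: gatgagatgACAGGCTACgtggctacc
Mapk6: ggtcatcttTCTGAAGGAttggttacc
The middle codon of the motif reads glutamate in Mapk3 and Mapk7 (the ERK branches), proline in Mapk8, Mapk9 and Mapk10 (JNK) and glycine in Mapk11, Mapk12 and Mapk14 (p38). Mapk6, which encodes the atypical kinase ERK3, begins the motif with serine and has glycine in place of the tyrosine. On GRCm38 the motif of Mapk3 is at chr7:126763458-126763466 on the plus strand, in exon 4 of 7. That of Mapk9 is at chr11:49872830-49872838 on the plus strand, in exon 6 of 12, and that of Mapk14 at chr17:28728399-28728407 on the plus strand, in exon 7 of 12.

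The 43 genes all passed the filter on low counts, with 17 to 19167 counts per gene and library. Library totals ran from 17570311 to 35716869 counts in control and from 24563143 to 38680621 in deltamethrin. Markers of neurons, astrocytes, oligodendrocytes, microglia and endothelium were present in each group, and the summed level of Alb, Apoa1 and Cyp2e1 (liver) was at most 0.888 CPM (counts scaled to library size) in any library. The summed choroid plexus markers ran from 258 to 1260 CPM in control and from 239 to 709 in deltamethrin (5 of 5 genes lower), striatal markers from 282 to 533 and from 216 to 585 (4 of 4 lower), blood markers from 492 to 1670 and from 380 to 1242 (5 of 5 lower), and cerebellar markers from 25.7 to 245 and from 39.1 to 327 (3 of 3 higher). Astrocyte markers ran from 1628 to 3057 CPM in control and from 1721 to 4915 in deltamethrin (5 of 5 higher), endothelial markers from 49.8 to 85.5 and from 58.9 to 101 (3 of 3 higher), and markers of inhibitory neurons from 263 to 458 and from 288 to 634 (3 of 3 higher). Medians in control and deltamethrin were 510 and 444 CPM for choroid plexus and 368 and 320 for striatum. For blood they were 646 and 630, and for cerebellum 189 and 189. For astrocytes they were 2325 and 2590, for endothelium 63.3 and 69.1, and for inhibitory neurons 406 and 416. The marker lists of neurons, excitatory neurons, oligodendrocytes and microglia held genes of both directions. The part of these markers in the values below was not tested. In bulk tissue fewer cells of a type and less RNA per cell cannot be told apart.

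No MAP kinase cascade gene passed the test of deltamethrin against control. By edgeR's quasi-likelihood test 0 of the 43 passed an adjusted p-value of 0.05 over all 19529 genes tested, where 0% of all genes passed. The count with an unadjusted p-value under 0.05 was likewise 0 of 43, against 4.37% of all genes (853), and 0 of 43 also by DESeq2. The smallest unadjusted p of a member was 0.0632 and the smallest adjusted p 0.813. In 22 genes the fold change was above 0 and in 21 below, with a median log2 fold change of 0.0050 beside 0.0014 over all genes tested. The fitted changes ran from -0.24 (Hras) to 0.14 (Map3k9), each smaller than the SD of that gene's log2 CPM over the control libraries. That SD is the spread of single libraries and not the error of a fold change, and the comparison was not made for all genes.

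The data bound the differences as well. The 95% confidence interval held 0 for each of the 43 genes, and it lay inside a 1.5-fold change in either direction for 43 and inside a 1.2-fold change for 31. The range of library values in deltamethrin overlapped that in control for 43 of 43 genes. These counts of intervals and overlaps were not taken over all genes, so they have no background.

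**Figure D1:**
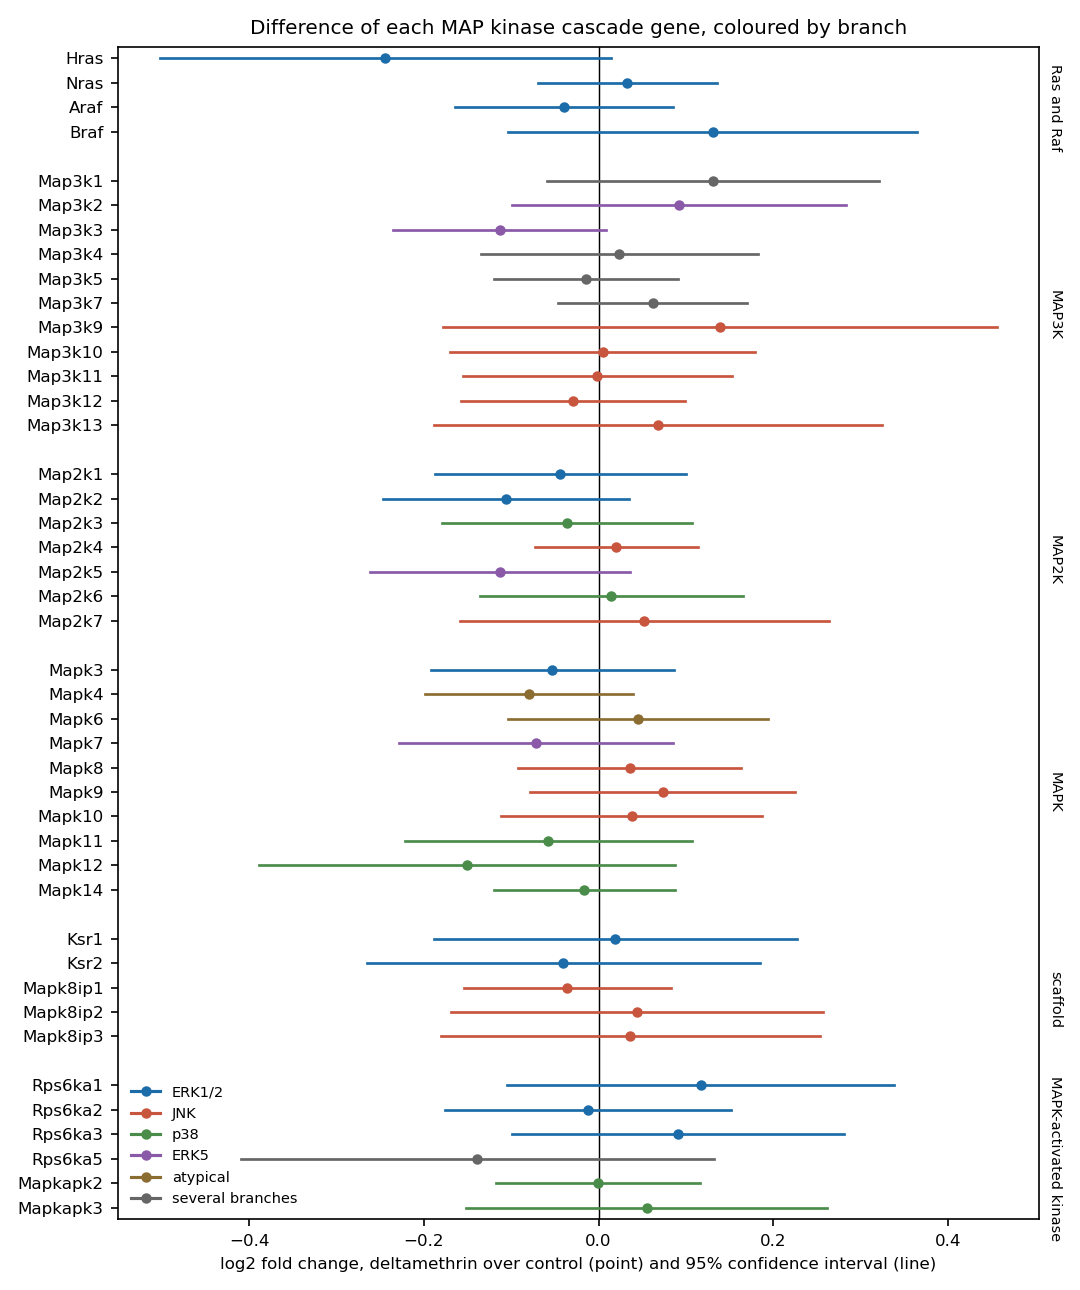
Each point is the log2 fold change of a gene, deltamethrin over control (horizontal axis), and each line its 95% confidence interval. Genes are ordered by tier and coloured by branch. Every line crosses 0, and Hras, Map3k9 and Rps6ka5 have some of the longest lines.

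The Ras and Raf tier opens the ERK1/2 branch. Ras proteins are GTPases at the membrane, and Raf proteins are the kinases they recruit. Hras had the smallest p-value of the 43 genes. In control its level was 114 CPM in the lowest library, 151 in the median and 273 in the highest. In deltamethrin the same values were 86.7, 134 and 222 CPM. The groups overlapped over most of their range, with 12 of 18 deltamethrin libraries below the control median, and the highest library was control replicate 2. Of the 31 libraries, that one had the fewest counts (17570311), the lowest scaling factor (0.613) and the largest share of mitochondrial ribosomal RNA (40.2%). The same library was the extreme one for several genes below. The log2 fold change of Hras (ENSMUSG00000025499, chromosome 7, 141189105 to 141194005, minus strand) was -0.24 ± 0.13 (SE), with an unadjusted p of 0.0632 and an adjusted p of 0.813 (edgeR). Without control replicate 2 it was -0.17 (unadjusted p = 0.171).

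Nras, the other Ras gene listed, varied little between libraries. It ran from 33.9 to 44.3 CPM in control and from 34.9 to 50.1 in deltamethrin, and its log2 fold change was 0.033 ± 0.050 (edgeR p = 0.518, adjusted to 0.884). Braf had 101 ± 15.1 CPM in the 13 control libraries and 110 ± 30.4 CPM in the 18 deltamethrin libraries (mean ± SD, as for the levels that follow). Its spread was wider in deltamethrin, where replicates 1, 2 and 3 reached 166, 156 and 171 CPM and the highest control library 122. The log2 fold change was 0.13 ± 0.12 (edgeR p = 0.264, adjusted to 0.823). Araf was close to level, at 123 ± 10.3 and 120 ± 14.6 CPM.

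The MAP3K tier held 7 genes above 0 and 4 below, with a median log2 fold change of 0.024. Map3k3 encodes MEKK3, which acts above MEK5 and ERK5. Its lowest, median and highest levels were 26.3, 29.2 and 45.9 CPM in control and 24.2, 28.2 and 31.9 CPM in deltamethrin. Control replicate 2 alone lay above 32.9 CPM, and the other control libraries overlapped deltamethrin. The log2 fold change of Map3k3 was -0.11 ± 0.060 (unadjusted p = 0.0682, adjusted p = 0.813), and -0.057 without that library (unadjusted p = 0.227). Map3k1 (MEKK1) had 14.6 ± 2.47 and 16.1 ± 3.11 CPM, so that the log2 fold change was 0.13 ± 0.094 (unadjusted p = 0.171). Map3k7 encodes TAK1, which passes on cytokine signals. It had 39.0 ± 3.16 and 40.7 ± 4.15 CPM, with a log2 fold change of 0.062 ± 0.053 (unadjusted p = 0.255).

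The 5 mixed-lineage and zipper-bearing kinases above JNK did not share a direction. Their log2 fold changes ran from -0.029 for Map3k12 (DLK, known for its part in axon injury signalling) to 0.14 for Map3k9. For Map3k12, 17 of 18 deltamethrin libraries lay below the control median, a count not taken over all genes. Its unadjusted p was 0.652 (edgeR), and without control replicate 2 its log2 fold change was -0.062 (unadjusted p = 0.287). Map3k9 had the largest biological coefficient of variation of the 43 genes (29.7%), and its libraries ran from 31.9 to 90.4 CPM in control and from 36.0 to 109 in deltamethrin.

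The MAP2K tier gave 3 genes above 0 and 4 below, with a median of -0.036. Map2k5 encodes MEK5, the kinase of ERK5. Its lowest, median and highest levels were 24.4, 27.04 and 46.5 CPM in control and 22.6, 26.3 and 34.3 CPM in deltamethrin. The value of 46.5 CPM came from control replicate 2, and the remaining libraries overlapped. The log2 fold change of Map2k5 was -0.11 ± 0.073 (unadjusted p = 0.132), and -0.044 without that library. The ERK1/2 activators were Map2k2 (MEK2), at 72.6 ± 8.03 CPM in control and 67.5 ± 9.88 in deltamethrin (log2 fold change -0.11 ± 0.070, unadjusted p = 0.137), and Map2k1 (MEK1), at 191 ± 27.999 and 185 ± 19.5 CPM (-0.044 ± 0.071, unadjusted p = 0.543). The p38 activators Map2k3 and Map2k6 had log2 fold changes of -0.036 and 0.015. Map2k4, which acts on JNK and p38, was the steadiest of the 43 genes (biological coefficient of variation 9.50%), with a log2 fold change of 0.021 and an interval of -0.073 to 0.11. The JNK activator Map2k7 had 0.052 with all libraries and -0.012 without control replicate 2, where it was lowest (11.8 CPM).

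**Figure D2:**
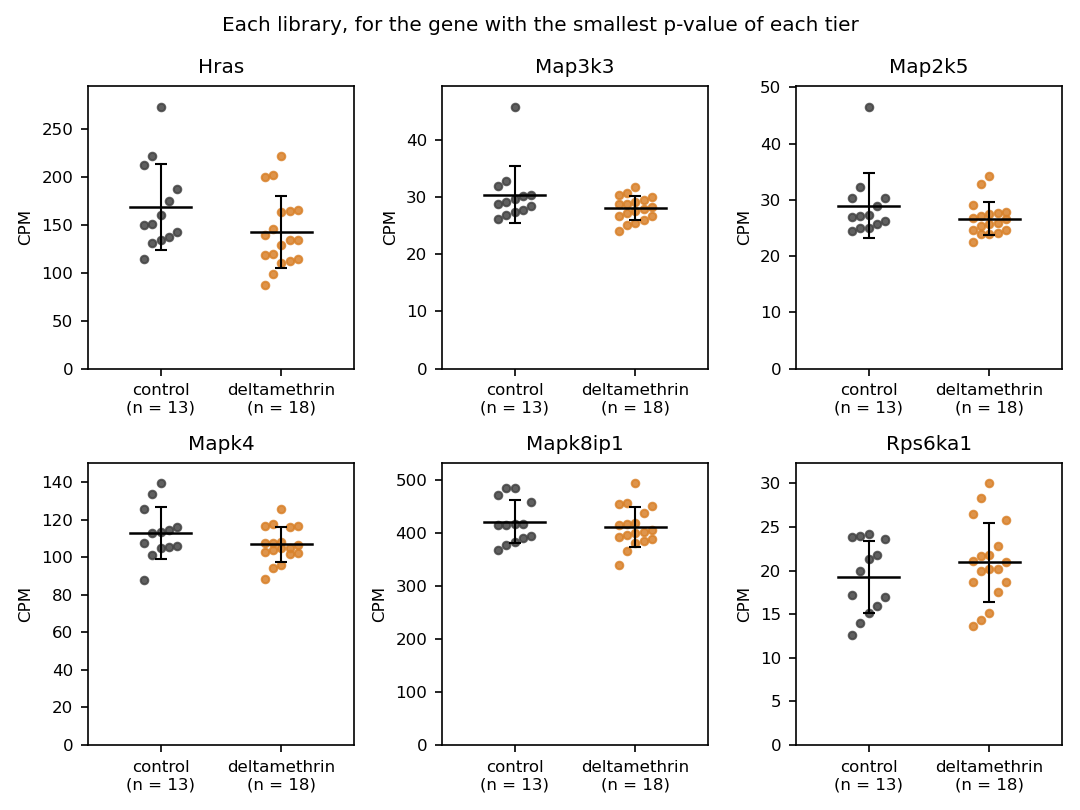
Each point is 1 library (vertical axis, CPM from 0), for the gene with the smallest p-value of each tier, in control (n = 13) and deltamethrin (n = 18). Horizontal bars are means and error bars ± 1 SD; the groups overlap in every panel, and a single control library stands above the rest for Map3k3 (45.9 CPM) and Map2k5 (46.5 CPM).

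Among the MAPKs themselves 4 genes were above 0 and 6 below, with a median of -0.035. Mapk3 encodes ERK1. It had 108 CPM in the lowest control library, 131 in the median and 171 in the highest, and 106, 124 and 170 CPM in deltamethrin. The ranges were almost the same, and the log2 fold change was -0.053 ± 0.068 with an interval of -0.19 to 0.086. The JNK genes Mapk8, Mapk9 and Mapk10 had log2 fold changes of 0.036, 0.073 and 0.038. Of these Mapk9 had the smallest p-value (0.073 ± 0.074, unadjusted p = 0.332), with 141 ± 20.01 CPM in control and 149 ± 19.4 in deltamethrin. Without control replicate 2 the log2 fold change of Mapk9 was 0.036 (unadjusted p = 0.604) and that of Mapk10 0.0096.

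The p38 genes lay below 0. Mapk14 (p38 alpha) had 59.1 ± 5.02 and 58.4 ± 5.17 CPM, and its log2 fold change was -0.016 with an interval of -0.12 to 0.087. Mapk11 (p38 beta) had -0.058, and Mapk12 (p38 gamma) -0.15 ± 0.12 (unadjusted p = 0.207). Mapk12 was low, at 8.25 ± 2.17 CPM in control and 7.45 ± 1.49 in deltamethrin, with 84 to 397 counts per library. Mapk11 (chromosome 15, 89142486 to 89149628) and Mapk12 (89130584 to 89140703) lie next to each other on the minus strand. The atypical MAPK gene Mapk4 had 113 ± 13.8 and 107 ± 9.20 CPM (-0.080 ± 0.059, unadjusted p = 0.182). The other atypical gene, Mapk6, had a log2 fold change of 0.045, and Mapk7, which encodes ERK5, had -0.072.

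Scaffold genes had log2 fold changes from -0.040 to 0.044, with a median of 0.019. Mapk8ip1, Mapk8ip2 and Mapk8ip3 encode the JNK-interacting proteins JIP1, JIP2 and JIP3, and Ksr1 and Ksr2 scaffold Raf, MEK and ERK. Mapk8ip1 had the highest level of the 43 genes per kilobase of exon, and its CPM were 368, 415 and 485 in the lowest, median and highest control library and 339, 403 and 493 in deltamethrin. These values overlapped almost fully (log2 fold change -0.036 ± 0.058, unadjusted p = 0.544). Mapk8ip2 had 282 ± 60.9 and 291 ± 52.0 CPM (0.044 ± 0.10, unadjusted p = 0.679). Ksr2 had 85.9 ± 22.8 and 83.4 ± 18.6 CPM (-0.040 ± 0.11, unadjusted p = 0.717), and control replicate 2 was its highest library (156 CPM). Without that library the log2 fold change of Ksr2 was 0.057 and that of Mapk8ip2 -0.012.

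Of the kinases that MAPKs switch on, 3 were above 0 and 3 below, with a median of 0.027. The ribosomal S6 kinase genes Rps6ka1, Rps6ka2 and Rps6ka3 encode RSK proteins that act below ERK1/2. Rps6ka1 had 19.3 ± 4.14 and 20.95 ± 4.54 CPM (log2 fold change 0.12 ± 0.11, unadjusted p = 0.291) and Rps6ka3 34.6 ± 5.65 and 36.8 ± 7.19 CPM (0.091 ± 0.093, unadjusted p = 0.338). Rps6ka5 encodes MSK1, a nuclear kinase below both ERK and p38 that phosphorylates CREB. It ran from 26.6 through a median of 36.3 to 104 CPM in control and from 28.6 through 38.2 to 54.2 CPM in deltamethrin. The value of 104 CPM was control replicate 2, about which the sign turned: the log2 fold change of Rps6ka5 was -0.14 ± 0.13 (unadjusted p = 0.305) with it and 0.041 without it (unadjusted p = 0.653). Mapkapk2 and Mapkapk3, which act below p38, had -0.00066 and 0.055. Mapkapk3 had the fewest counts of the 43 genes, at 2.52 ± 0.576 and 2.64 ± 0.406 CPM.

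By branch the median log2 fold changes were -0.026 for ERK1/2, 0.036 for JNK, -0.016 for p38, -0.092 for ERK5, -0.018 for the atypical MAPKs and 0.024 for genes of several branches. In the JNK branch, which here includes Map2k4 although it also acts on p38, 10 of 13 genes were above 0, where 50.5% of all genes were. Without control replicate 2 the count was 6 of 13 and the JNK median -0.011. In the ERK5 branch 3 of 4 were below 0. Of the medians over all members, the 6 tiers and the 6 branches, 12 of 13 turned their sign in at least 1 of 42 other fits, the exception being ERK5. These are descriptions, since 0 genes of either branch passed an unadjusted p-value of 0.05.

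Levels differed far more between genes than between groups. Per kilobase of exon, Hras led its tier in control at 45.1 ± 11.998 CPM, ahead of Araf at 18.8 ± 1.57, while Nras (7.33 ± 0.634) and Braf (7.28 ± 1.09) did not differ beyond their SDs. Map3k10 stood above the other MAP3Ks, at 54.3 ± 10.8 CPM per kilobase against 10.1 ± 3.05 for Map3k9, the next. The exons of Map3k10 overlap those of Ttc9b on the other strand over 14.8% of their length, and the use of strand in counting is not given in the sources used here, so this level is uncertain. Map2k1 led the MAP2Ks (56.3 ± 8.26 CPM per kilobase), then Map2k4 (25.8 ± 1.96) and Map2k2 (12.8 ± 1.42), and the p38 activators Map2k6 (3.08 ± 0.351) and Map2k3 (2.50 ± 0.308) were lowest.

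Mapk3 led the MAPKs at 58.9 ± 7.26 CPM per kilobase. Mapk4 (20.9 ± 2.56), Mapk9 (20.8 ± 2.95) and Mapk10 (18.2 ± 2.59) followed, with neighbours within their SDs, and then Mapk14 (13.5 ± 1.15). Among the JNK genes, Mapk9 made up 46.2 ± 1.94% of the summed per-kilobase level in control and 46.8 ± 1.197% in deltamethrin. Mapk10, which is best known from neurons, made up 40.3 ± 1.67% and 39.9 ± 1.51%, and Mapk8 13.6 ± 1.38% and 13.3 ± 1.2496%. Before division by exon length Mapk10 was the higher, at 202 ± 28.8 CPM in control against 141 ± 20.01 for Mapk9. The lead of Mapk9 thus rests on the exon lengths used (6.784 kb for Mapk9 and 11.13 kb for Mapk10). Of the summed level of Mapk11, Mapk12 and Mapk14, Mapk14 made up 57.3 ± 4.33% and 58.2 ± 4.22%, Mapk11 33.6 ± 3.34% and 33.3 ± 3.38%, and Mapk12 9.14 ± 2.08% and 8.51 ± 1.57%. Each share differed between the groups by less than its SD, which is the spread of single libraries and gives no test of change. The remaining p38 gene, Mapk13, had 1.17 ± 0.363 CPM in control and 0.989 ± 0.317 in deltamethrin and is not part of these shares.

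Scaffold levels followed the order Mapk8ip1 (90.7 ± 8.75 CPM per kilobase), Mapk8ip2 (49.5 ± 10.7) and Mapk8ip3 (23.5 ± 4.89), with Ksr2 (6.32 ± 1.68) and Ksr1 (5.71 ± 1.23) within their SDs. Mapkapk2 (9.46 ± 1.32 CPM per kilobase) lay above the RSK genes, which ran from 5.86 ± 0.880 for Rps6ka2 to 4.15 ± 0.679 for Rps6ka3, and Mapkapk3 had 0.455 ± 0.104. In all, 14 of the 43 genes share exon sequence with another annotated gene. The share of exon length is largest for Map2k7 (35.2%, with Gm49320), Mapk8ip3 (23.7%) and Map3k12 (19.3%).

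**Figure D3:**
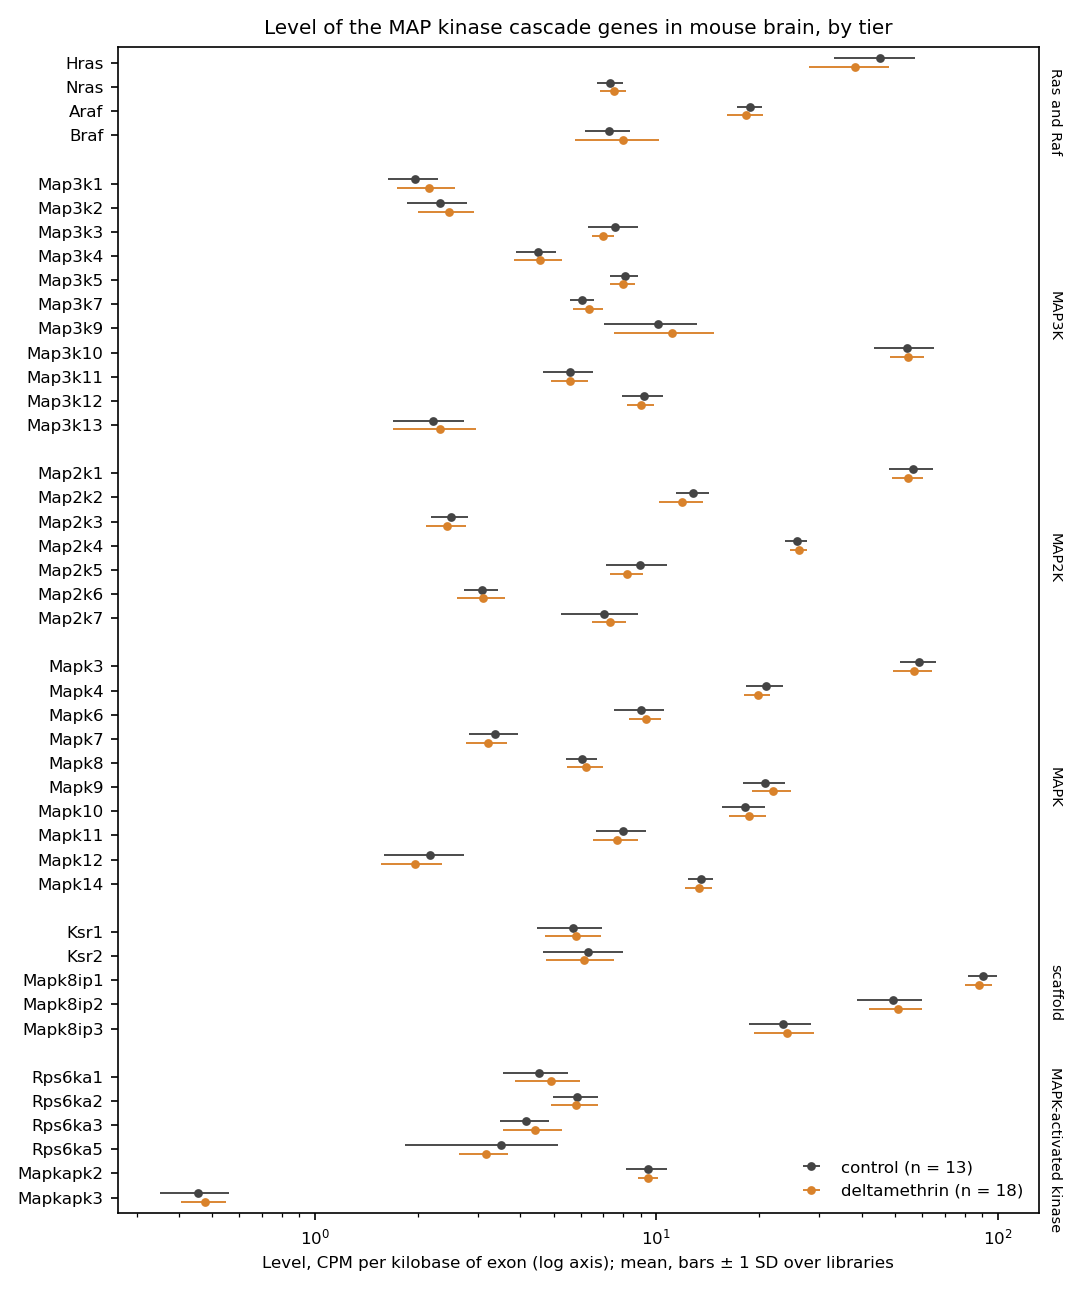
Points are the mean level of each gene in CPM per kilobase of exon (log axis) in control (n = 13, upper of each pair) and deltamethrin (n = 18, lower), with bars of ± 1 SD. The levels span from 0.455 (Mapkapk3) to 90.7 (Mapk8ip1) CPM per kilobase in control, and the bars of the groups overlap for each gene.

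The balance between paralogs was read as the log2 ratio of counts within a library, which does not depend on scaling factors. In 15 of 15 pairs the group means differed by less than the control SD. That SD is the spread of single libraries and not the error of a difference of means, so the count is no test of change. Pairs of other genes were not examined. The largest difference was 0.675 of the control SD, for Hras over Nras. Its mean log2 ratio was 2.07 ± 0.416 (highest library 2.90) in control and 1.79 ± 0.426 (highest library 2.53) in deltamethrin. Araf over Braf had 0.30 ± 0.33 and 0.16 ± 0.55, and Map2k1 over Map2k2 1.39 ± 0.297 and 1.46 ± 0.205. The JNK pair Mapk9 over Mapk10 was tight, at -0.52 ± 0.11 and -0.48 ± 0.082. The steadiest ratio was Mapk8ip2 over Mapk8ip3, at -0.29 ± 0.079 and -0.27 ± 0.047.

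The libraries differed in composition, and many members varied with it. Mitochondrial ribosomal RNA (mt-Rnr1 and mt-Rnr2) took from 8.49% to 40.2% of counts in control libraries (median 12.9%) and from 7.32% to 26.3% in deltamethrin (median 14.8%). The log2 CPM of 27 members followed the log2 of this share over the 31 libraries at an adjusted p under 0.05 (permutation tests with 100000 resamples, adjusted over all genes). Of these 22 fell as the share rose, and 5 rose with it. Over all genes 28.5% fell and 27.9% rose. The median Pearson r of the 43 was -0.40 beside 0.0091 over all genes, and the cause was not tested.

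The JNK branch lay on the falling side, with 10 of 13 genes falling and 0 rising (median r = -0.80). The weakest of the 10 was Map2k4, close to the threshold (r = -0.397, adjusted permutation p = 0.0493). Mapk8ip3 had r = -0.918 and Spearman rho = -0.906, each with a permutation p of 1e-05, the smallest the resamples can give (adjusted 4.62e-05 and 5.68e-05). Its r was -0.884 when control replicates 2 and 7, whose share lay farthest from the median, were left out, -0.937 within control and -0.905 within deltamethrin. Mapk8ip2 (r = -0.918), Map3k9 (-0.909), Ksr1 (-0.907) and Map3k4 (-0.895) were similar, and within each group the r of these 4 genes was -0.87 or stronger. Mapk9 had r = -0.810 (rho = -0.770), and Mapk10 -0.664.

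The genes that rose with the share were Hras, Map3k3, Rps6ka5, Map2k5 and Araf. Hras had r = 0.840 and rho = 0.815, each with a permutation p of 1e-05 (adjusted 4.62e-05 and 5.68e-05), and r = 0.812 without those 2 libraries, with 0.857 in control and 0.895 in deltamethrin alone. Map3k3 had r = 0.758 and rho = 0.660 (r = 0.630 without the 2 libraries), Rps6ka5 0.731 and 0.633 (r = 0.559), and Map2k5 0.663 and 0.543 (r = 0.552). Araf had 0.480 (0.616 without the 2 libraries), with 0.088 within control and 0.761 within deltamethrin. In the fit with the share as a covariate, the log2 fold change of Hras was -0.20 (edgeR p = 0.00385, adjusted to 0.480) and that of Map3k3 -0.090 (edgeR p = 0.0371, adjusted to 0.525). Those 2 of 43 were the members at an unadjusted p under 0.05 in that fit, where 9.20% of all genes were.

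**Figure D4:**
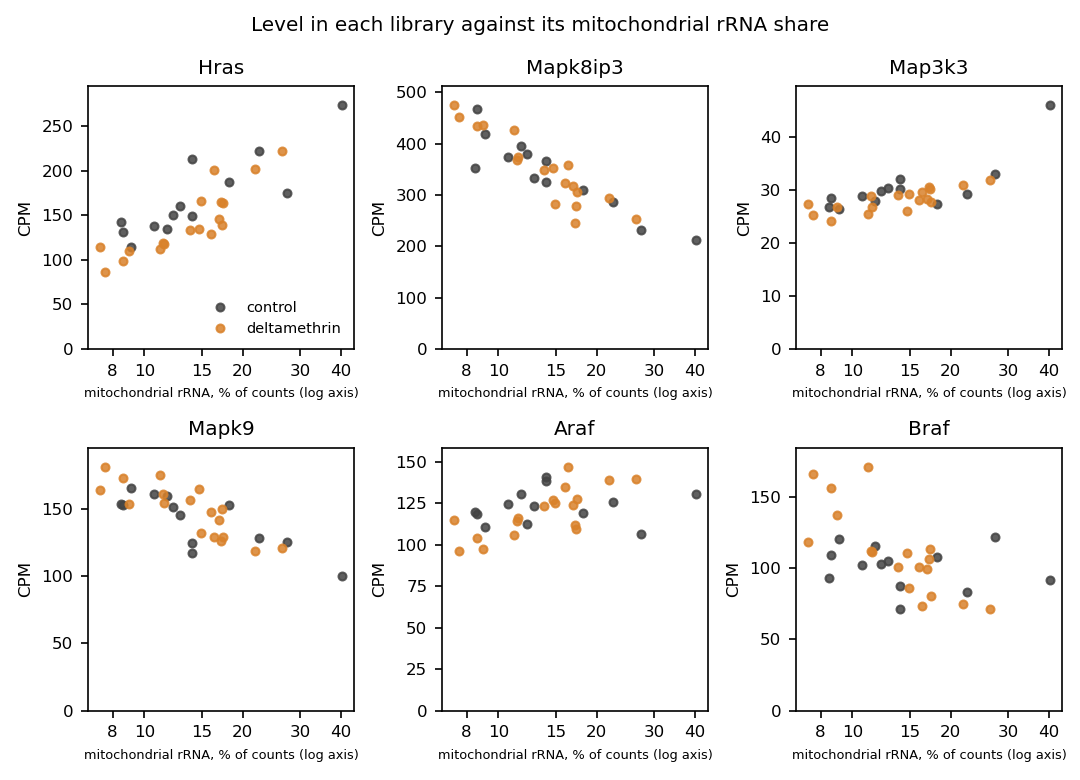
Each point is 1 library: its mitochondrial rRNA share in percent of counts (horizontal, log axis) and the level of a gene in CPM (vertical, from 0), for 6 genes picked after their values were seen. Hras, Map3k3 and Araf rise with the share (r = 0.840, 0.758 and 0.480), and Mapk8ip3, Mapk9 and Braf fall (r = -0.918, -0.810 and -0.545). Within control r is 0.088 for Araf and -0.171 for Braf, and within deltamethrin 0.761 and -0.808. The ranges of the groups overlap in every panel, but for Braf deltamethrin replicates 1, 2, 3 and 7 lie above every control library.

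Some paralogs varied together from library to library and some apart, once group means were subtracted. Of the 15 pairs, 6 were positively and 2 negatively correlated at an adjusted p under 0.05 over the pairs. Pairs of other genes were not examined, so these counts have no background. For each pair r was also taken without the 2 libraries farthest from the median of the first gene named. These libraries were chosen anew for each pair. Mapk8ip2 and Mapk8ip3 had r = 0.979 and rho = 0.985 (each permutation p = 1e-05, adjusted 5e-05). Without the pair's 2 farthest libraries r was 0.981, and it was 0.977 in control alone and 0.991 in deltamethrin alone. Mapk9 and Mapk10 had r = 0.885 and rho = 0.879 (each permutation p = 1e-05, adjusted 5e-05). Their r was 0.857 without the pair's 2 farthest libraries, 0.865 in control alone and 0.905 in deltamethrin alone.

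The Raf genes went opposite ways. Araf and Braf had r = -0.862 and rho = -0.844 (each permutation p = 1e-05, adjusted 5e-05). Their r was -0.837 without the pair's 2 farthest libraries, -0.739 in control alone and -0.899 in deltamethrin alone. Without scaling factors their r over all libraries was -0.134 (adjusted permutation p = 0.508), with 0.423 in control alone and -0.658 in deltamethrin alone. The p38 activators Map2k3 and Map2k6 had r = -0.502 and rho = -0.476 (permutation p = 0.00376 and 0.00712, adjusted 0.00705 and 0.0153). Their r was -0.483 without the pair's 2 farthest libraries, -0.452 in control alone and -0.529 in deltamethrin alone. Without scaling factors their r over all libraries was 0.103. Mapkapk2 and Mapkapk3 had r = 0.528 and rho = 0.398 (permutation p = 0.00239 and 0.0277, adjusted 0.00576 and 0.0461). That r was 0.344 without the pair's 2 farthest libraries, 0.702 in control alone and 0.104 in deltamethrin alone. The points of each pair share a library's depth and composition.

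Of 67 other genes of the pathway, which include further GTPases, exchange factors, GTPase-activating proteins, adaptors and kinases, 64 were tested. None passed an adjusted p-value of 0.05 (0 of 64, edgeR), and 1 was at an unadjusted p under 0.05 against 4.37% of all genes. That gene was Rras, which encodes a Ras-related GTPase. Its level was 7.54 ± 1.42 CPM in control and 6.47 ± 1.13 in deltamethrin, and its log2 fold change was -0.22 ± 0.091 (edgeR p = 0.0236, adjusted to 0.813). The median over the 64 genes was 0.025, with 39 above 0 and 25 below.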

How the data were processed

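The authors deposited 1 table of raw counts per Ensembl gene for 31 libraries, with no normalization. Per the submitters' processing notes the tools were Trimmomatic, HISAT2, SAMtools and MultiQC and the build GRCm38. The counting tool, annotation and use of strand are not given in the sources used here. Columns were matched to samples by title and groups taken from the agent label. Gene names, exon lengths and coordinates are those of GENCODE M21 (GRCm38), which held 48349 IDs (99.1%).

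The whole table was fitted with edgeR 4.0.16 (R 4.3.3): filterByExpr (minimum count 10, minimum total 15, leaving 19529 genes), TMM factors, robust quasi-likelihood F-test without covariates, and Benjamini-Hochberg adjustment. Each SE was obtained by dividing the log2 fold change, without its sign, by the square root of F. CPM use TMM-scaled library sizes, and log2 CPM a prior count of 2. Full statistics go to the 3 members of each tier with the smallest p-value and to any under 0.05, and of the other pathway genes to those under 0.05. On simulated counts with 19400 genes, 92% of genes changed 2-fold, 72% changed 1.5-fold and 36% changed 1.25-fold were called. There 19200 genes were left unchanged and each gene was drawn independently, without the composition that real libraries share. The planted changes also ease the adjusted threshold, whereas no gene passed in the data. These percentages are thus not the power of the test on the real libraries.

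Alternatives were RLE, upper quartile and no factors, other filters, DESeq2 1.42.0, limma 3.58.1 voom, robust=FALSE, covariates (title number, mitochondrial rRNA share, 4 surrogate variables from sva 3.50.0), a threshold of 0.1 and leaving out each library. Correlations with mitochondrial rRNA share were adjusted over all genes, although the design named the members alone. The members and lists were chosen with earlier results of these data known. Kinase activity data of the study were not analysed here.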

Additional observations from a re-analysis of the deposited data

How the results depend on the processing

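The number of genes and of members past an adjusted p-value of 0.05 was 0 under each of the 11 alternative fits and the 31 fits that left out 1 library, and with a threshold of 0.1 the number of members was 0. The smallest adjusted p of a member ran from 0.334 (surrogate variables) to 0.909 over the alternatives and from 0.628 to 0.982 when 1 library was left out. At an unadjusted p under 0.05 there was 1 member with limma voom (Hras; 4.34% of all genes), 2 with the mitochondrial rRNA covariate (Hras and Map3k3; 9.20%) and 4 with surrogate variables (Hras, Map3k3, Map3k13 and Rps6ka2; 10.5%), and from 0 to 2 when 1 library was left out (2.68% to 7.13%). Hras was among them without control replicate 4, 9 or 12 or deltamethrin replicate 8, 9 or 10, Map3k3 without deltamethrin replicate 8 and Map2k2 without deltamethrin replicate 14.

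The median log2 fold change of the members lay between -0.026 and 0.045 over the alternatives. Of the 13 medians over members, tiers and branches, 12 turned their sign under an alternative and 7 when 1 library was left out. The JNK median was -0.012 with surrogate variables and -0.011 without control replicate 2. The scaffold median was -0.042 and -0.012 in those fits, and with surrogate variables the MAP3K median was -0.031 and that of several branches -0.042. That of all genes was 0.043 without scaling factors. Of 209 values of named genes under the alternatives 203 kept their direction. Without scaling factors the log2 fold change of Ksr2 was 0.041 and of Mapk8ip1 0.0034. With surrogate variables Braf had -0.061, Mapk8ip1 0.012, Mapk8ip2 -0.012 and Rps6ka3 -0.022. When 1 library was left out Ksr2 ran from -0.073 to 0.057, Mapk8ip2 from -0.012 to 0.091 and Rps6ka5 from -0.18 to 0.041. The cause of these changes was not tested.

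Without scaling factors 13 of the 15 paralog pairs were correlated at an adjusted p under 0.05, against 8 with them, and r of Map2k3 with Map2k6 was 0.10. With library sizes computed without the mitochondrial rRNAs, 21 members fell with the share and 5 rose. Among the other pathway genes the number at an unadjusted p under 0.05 was 12 of 64 with surrogate variables (10.5% of all genes), and when 1 library was left out it ran from 0 to 5, the extremes coming from control replicates 11 and 7. No paired analysis was possible because the labels give the libraries no shared replicate numbers.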
